A study of Mus musculus with 6 samples.

Results

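The cytosolic ribosomal protein genes were taken by symbol: Rps or Rpl followed by a number, with Rplp0, Rplp1, Rplp2 and Rpsa, and without ribosomal S6 kinases or symbols marked -ps. By this rule 84 of the 31253 genes in the count matrices were members, 32 for the small and 52 for the large ribosomal subunit. The number includes 7 paralog symbols (Rpl22l1, Rps27l, Rpl7l1, Rpl39l, Rpl10l, Rpl36al and Rpl3l). The 8 symbols marked -ps held 0.00223% to 0.00372% of the UMIs of a library. The rule used symbols alone, and no measured value entered it.

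Single cells of peripheral blood from male mice of 12 to 13 weeks were sequenced in 6 libraries. The 3 control libraries (Con) came from mice injected intraperitoneally with saline, and the 3 diabetic libraries (T2D) from mice injected with STZ (streptozotocin), a toxin of pancreatic beta cells, in a model that the series title describes as HFD/STZ-induced. The sample labels give no diet and no strain, and whether each library holds the blood of 1 animal or of several is not stated. The p-values therefore measure the spread between libraries, which may be partly technical. Mononuclear cells were taken from a Ficoll gradient after which red cells were lysed, and each molecule was counted once by its unique molecular identifier (UMI) near the 3′ end of the transcript.

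The libraries held 7404 to 9112 cell barcodes with 23574052 to 32321855 UMIs, and 7339 to 8997 cells each were kept, with a median of 2814 to 3244 UMIs. Ribosomal protein genes gave 12.1% to 12.9% of the UMIs of a whole library. Cells were placed in classes by the number of marker genes with a UMI, at least 2 of the class and fewer than 2 of any other lineage, and none of the markers was a ribosomal protein gene. CD4 T cells were cells of the T gate with a UMI of the CD4 coreceptor and none of CD8, and CD8 T cells the reverse. T cells with neither or with both entered the T gate alone. Of the kept cells, 17.7% to 28.1% passed gates of 2 lineages and were left out, and 2.18% to 2.75% passed none. Pairs of libraries shared 65 to 89 cell barcodes. In the B and CD4 T gates, markers that the gates did not use followed the names. The B cell genes Bank1, Cd22, Blk, Pax5 and Ebf1 summed to 4343 to 4513 CPM (UMIs of a gene per 1000000 UMIs of the class) in the B gate, against 99.5 to 155 CPM in the CD4 T gate. There, 4 T cell genes (Cd5, Cd6, Bcl11b, Tcf7) summed to 3349 to 3663 CPM. Other lists were less exclusive. A list of 5 NK genes summed to 7925 to 8806 CPM in NK cells, 3384 to 4742 CPM in neutrophils and 2221 to 2682 CPM in classical monocytes.

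A ribosome joins a small subunit, which reads the messenger RNA, and a large subunit, which forms the peptide bond. Most of the proteins are needed in equal number. Their messenger RNAs begin with a run of pyrimidines at the cap, the terminal oligopyrimidine (TOP) element, through which mTORC1 and the cap-binding protein Larp1 control their translation and storage. In lymphocytes, antigen receptor signals raise ribosome synthesis before the cells grow and divide. The share of a cell's messenger RNA that codes for ribosomal proteins also differs between blood cell types.

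Start-site windows are shown for members on which the results below turn, because the TOP element lies at the transcript start. Each window runs from 15 bases before to 15 bases after the start that RefSeq annotates (assembly GRCm38.p6), on the strand of the gene, with the longest run of C and T in capitals. The first 6 were lower in T2D in the CD4 T gate, and the last 3 rose there relative to the sum of all ribosomal protein UMIs.
Rpl39: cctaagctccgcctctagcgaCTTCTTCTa
Rpl38: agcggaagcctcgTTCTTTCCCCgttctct
Rpl13: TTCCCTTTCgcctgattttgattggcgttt
Rps6: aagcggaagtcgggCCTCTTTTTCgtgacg
Rpl36a: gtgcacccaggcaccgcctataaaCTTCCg
Rps28: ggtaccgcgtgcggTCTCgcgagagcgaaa
Rpl13a: gaaaccctgcgacaagaCCTCCTCCTTTCC
Rpl24: agaaagCTgttgctaggaaacagactgggc
Rpl7l1: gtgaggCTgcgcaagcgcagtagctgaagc

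The windows lie on the minus strand at chrX:37085208-37085237 (Rpl39), chr4:86857353-86857382 (Rps6), chr17:33824548-33824577 (Rps28), chr7:45128731-45128760 (Rpl13a) and chr17:46782642-46782671 (Rpl7l1). On the plus strand they lie at chr11:114668565-114668594 (Rpl38), chr8:123102335-123102364 (Rpl13), chrX:134585639-134585668 (Rpl36a) and chr16:55966260-55966289 (Rpl24). Each window spans the end of the promoter and the first bases of the 5′ untranslated region. The longest run of C or T was 8 bases for Rpl39, 10 for Rpl38 and Rps6, 9 for Rpl13, 13 for Rpl13a, 5 for Rpl36a, 4 for Rps28 and 2 for Rpl24 and Rpl7l1. Runs of at least 7 bases of C or T on the gene's strand were found in 35 of 76 annotated starts of 64 members (46.1%), in 18.6% of all 32851 starts of the table, and in 14.7% of 75 starts of mitochondrial ribosomal protein genes. Among starts of members that were lower in T2D in the CD4 T gate, 16 of 35 held such a run (45.7%), and among starts of the other members tested there, 18 of 37 did (48.6%). Runs were taken anywhere in the window, also before the annotated start, where the run of Rpl13 lies. These counts are therefore not counts of TOP elements. A run of letters in a window does not show where transcription started in these cells.

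The share of UMIs from ribosomal protein genes differed widely between cell classes and far less between libraries of a class. It was highest in the CD8 T gate, at 19.3% ± 0.64 (SD, n = 6 libraries), followed by the CD4 T gate at 16.0% ± 1.1 and the B gate at 10.8% ± 0.45. It was 7.24% ± 0.33 in classical monocytes, 6.51% ± 0.19 in non-classical monocytes and 6.11% ± 0.58 in NK cells. Neutrophils held 2.75% ± 0.46 and platelets 1.33% ± 0.23. The ranges over libraries of the 2 monocyte gates and the NK gate met: 6.78% to 7.69%, 6.24% to 6.79% and 5.42% to 6.84%. In classes with few cells, antibody-secreting cells ranged from 8.57% to 11.4% (19 to 53 cells a library), regulatory-type CD4 T cells from 9.07% to 12.3% (10 to 73 cells) and eosinophils from 4.81% to 6.12% (3 to 18 cells).

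**Figure D1:**
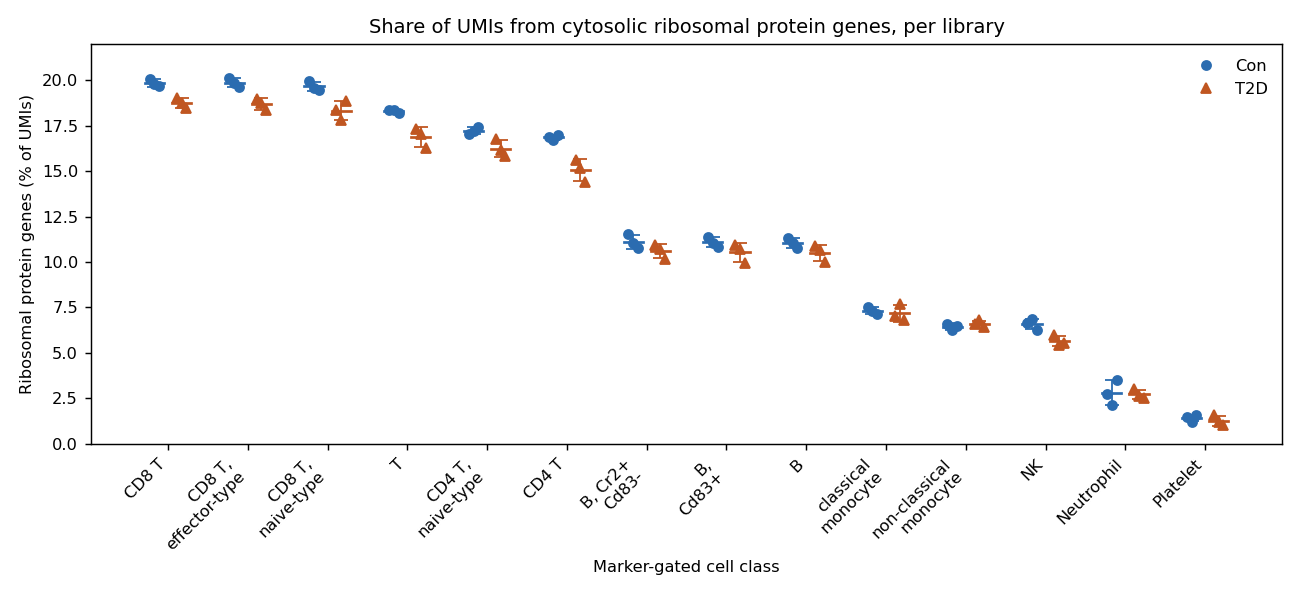
Share of UMIs from the 84 ribosomal protein genes (y axis, percent) in each marker-gated class (x axis), 1 point a library, with the mean and SD of 3 Con (circles) and 3 T2D (triangles) libraries. The T and NK gates of the T2D libraries lie below those of Con without overlap, and the B, monocyte, neutrophil and platelet gates overlap; CD4 and CD8 gates and sub-gates lie within the T gate.

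Ribosomal protein transcripts took a smaller share of UMIs in the CD4 T cells of the T2D libraries. The share was 16.9%, 16.7% and 17.0% in Con 1 to 3 and 15.6%, 15.2% and 14.4% in T2D 1 to 3. Every T2D library lay below every Con library, with means of 16.9% ± 0.13 and 15.1% ± 0.60 (SD, n = 3 each), so that the T2D mean was 89.4% of the Con mean. Small-subunit genes went from 8.78% to 7.83% and large-subunit genes from 8.07% to 7.23%. Per cell, 617, 590 and 625 ribosomal protein UMIs were counted in Con 1 to 3 and 527, 534 and 536 in T2D 1 to 3. UMIs of all other genes overlapped, with 2939 to 3057 a cell in Con and 2853 to 3184 in T2D.

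The lower share was also seen at matched depth. In CD4 T cells with 2000 to 4000 UMIs it was 16.2% to 16.8% in Con (249 to 383 cells a library) and 14.5% to 15.6% in T2D (448 to 596 cells). With 4000 to 8000 UMIs it was 16.9% to 17.8% in Con and 14.7% to 16.2% in T2D. Below that, between 1000 and 2000 UMIs, the groups overlapped (12.8% to 14.0% and 11.9% to 13.2%), with 27 to 69 cells a library. Other measures moved with the groups in this gate without overlap. Mitochondrially encoded genes gave 5.48% to 5.98% of UMIs in Con and 4.46% to 5.20% in T2D, with the lowest value in T2D 3, which also had the lowest ribosomal protein share. The summed level of 5 red cell genes (Hbb-bs, Hbb-bt, Hba-a1, Hba-a2, Alas2; at least 4 detected in each library) was 112 to 419 CPM in Con and 649 to 2573 CPM in T2D. That of 5 cycling genes was 61.6 to 87.8 and 115 to 156 CPM, and that of 5 NK genes 62.8 to 74.3 and 128 to 162 CPM. The NK genes include Nkg7, which also marks the effector-type cells described below, so this list is not separate from the mix of cells. The part of these measures in the result was not tested.

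Gene by gene, 39 of the 81 members tested in the CD4 T gate fell in T2D and none rose (edgeR quasi-likelihood test, Benjamini-Hochberg adjusted p under 0.05 over all 9387 genes tested, TMM scaling). Of all genes tested there, 2.75% fell and 2.28% rose. The median log2 fold change of the 81 members was -0.24, beside 0.00 for all genes, and 75 of 81 lay below 0, beside 50.3% of all genes. For 46 members (56.8%) every T2D library was below every Con library, beside 6.23% of all genes. The 3 members not tested, Rpl10l, Rpl39l and Rpl3l, had at most 1.46 CPM in any library. With library totals in place of TMM 11 members fell, at a median of -0.17, and the genes called over the whole transcriptome changed from 214 higher and 258 lower to 334 higher and 132 lower. DESeq2 called 40 members lower. Leaving out 1 library gave 24 lower members without Con 1, 10 without Con 2, 13 without Con 3, 42 without T2D 1, 21 without T2D 2 and 29 without T2D 3, where 1 member also passed upwards. Cells with at least 3 T markers and none of another lineage gave 1 (Rpl39, -0.30), at a median of -0.18, and the share of UMIs there was 17.0% to 17.5% in Con and 15.2% to 16.3% in T2D.

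**Figure D2:**
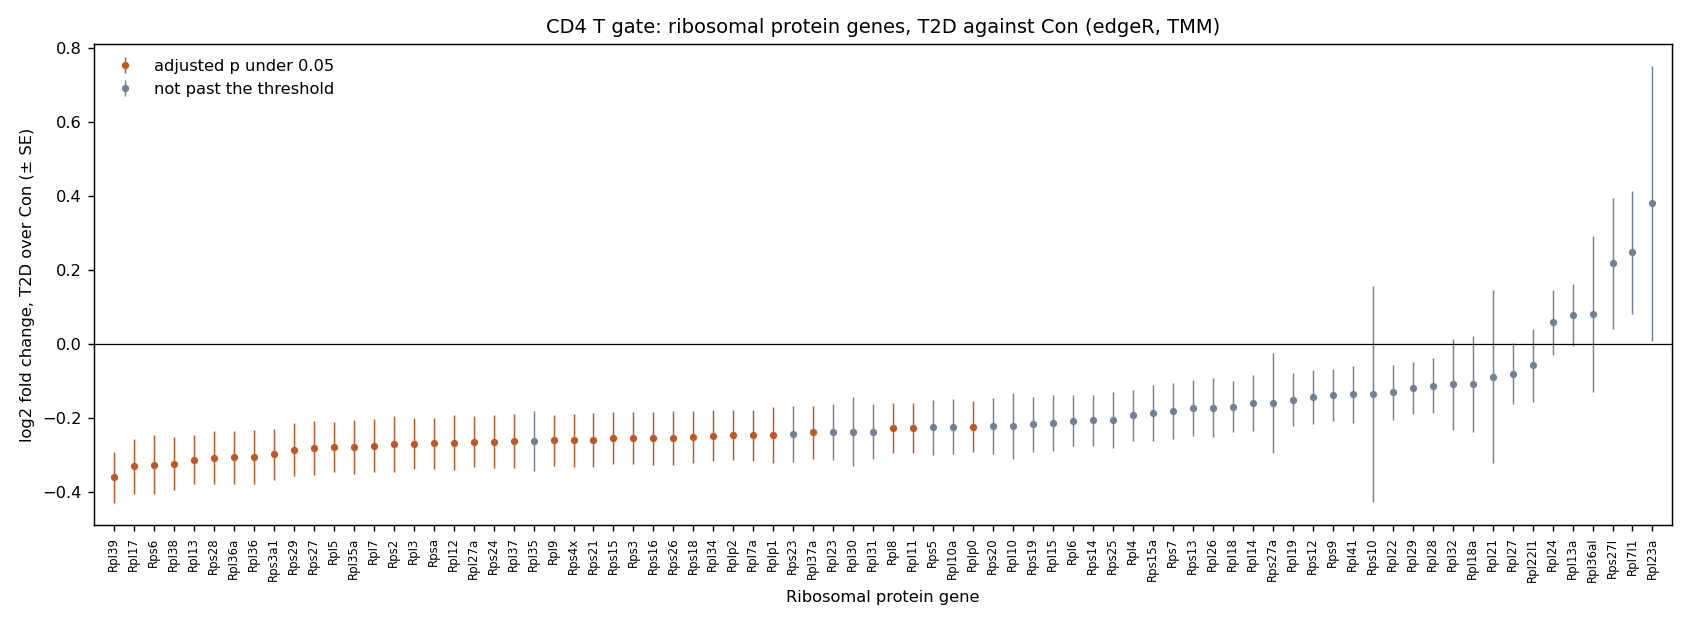
Log2 fold change of T2D over Con with its standard error (y axis) for 78 of the 81 ribosomal protein genes tested in the CD4 T gate (x axis, sorted), from edgeR with 3 libraries a group. Orange points are the 37 genes drawn that passed adjusted p 0.05, all below 0; grey points did not pass, and 72 of the 78 points lie below 0.

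Large-subunit proteins gave 22 of the 39 lower genes, out of 49 tested. Rpl39, a small protein of the wall of the exit tunnel, had 3428, 3500 and 3687 CPM in Con 1 to 3 and 2894, 2927 and 2869 CPM in T2D 1 to 3. All T2D libraries lay below all Con libraries, and the log2 fold change was -0.36 ± 0.07 (SE, adjusted p = 0.000766). Rpl13 had 1269, 1288 and 1260 CPM in Con and 1038, 1094 and 1099 CPM in T2D, a log2 fold change of -0.31 ± 0.07 (adjusted p = 0.00282), again without overlap. Rpl38, a surface protein whose loss in mice alters the translation of Hox messenger RNAs, had 1404, 1378 and 1549 CPM in Con and 1222, 1238 and 1180 CPM in T2D. It fell by 0.32 ± 0.07 on the log2 scale (adjusted p = 0.00315).

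Rpl17 (-0.33), Rpl36a (-0.31), Rpl36 (-0.31), Rpl35a (-0.28), Rpl7 (-0.28), Rpl3 (-0.27), Rpl27a (-0.27), Rpl9 (-0.26) and Rpl34 (-0.25) fell by like amounts on the log2 scale. Rpl36a and its paralog Rpl36al code for near-identical proteins, and the sources used here do not say how reads shared between such copies were counted. The pair of large-subunit proteins that carry the 5S RNA and can bind Mdm2, the negative regulator of p53, both fell: Rpl5 by 0.28 ± 0.07 (adjusted p = 0.00866) and Rpl11 by 0.23 ± 0.07 (adjusted p = 0.0406). The stalk, which recruits elongation factors, is made of Rplp0, Rplp1 and Rplp2, and 3 of 3 fell, beside 2.75% of all genes. Rplp0, which anchors the stalk, had 1669, 1666 and 1696 CPM in Con and 1577, 1480 and 1473 CPM in T2D (-0.22 ± 0.07, adjusted p = 0.0488). Rplp1 had a log2 fold change of -0.25 (adjusted p = 0.0453) and Rplp2 of -0.25 (adjusted p = 0.0241).

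Of 32 small-subunit genes tested, 17 fell, beside 2.75% of all genes. Rps28 fell by 0.31 on the log2 scale (adjusted p = 0.00612), Rps27 by 0.28 (adjusted p = 0.0131) and Rps29 by 0.29 (adjusted p = 0.0131). Rps3a1 (-0.30), Rps24 (-0.26), Rps4x (-0.26), Rps3 (-0.26) and Rps15 (-0.26) fell as well. Rpsa, which also serves as a laminin receptor precursor, had 2327, 2482 and 2526 CPM in Con and 2028, 2099 and 2278 CPM in T2D (-0.27 ± 0.07, adjusted p = 0.0142). Rps6, the substrate of S6 kinase, had 606, 527 and 490 CPM in Con and 396, 465 and 495 CPM in T2D. Its groups overlapped at Con 3 and T2D 3. The log2 fold change was -0.33 ± 0.08 (adjusted p = 0.0105), and the adjusted p was 0.117 without Con 1 and 0.0519 without T2D 1. Rps19, the gene most often mutated in Diamond-Blackfan anaemia, had a log2 fold change of -0.22 that missed the threshold (adjusted p = 0.0794).

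Of the 27 named members that fell in this gate, 5 passed in each of the 6 fits that left out 1 library: Rpl39, Rpl13, Rpl38, Rps3a1 and Rpl36a. Rplp0, Rpl11 and Rpl34 passed in 1 of the 6 fits.

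The members that lay above 0 in the CD4 T gate were few, and none passed the test. Of the paralogs, 0 of 4 tested passed (0 at an unadjusted p under 0.05, and 0 with DESeq2). Rpl7l1, a nucleolar relative of Rpl7, had 26.0, 29.9 and 32.1 CPM in Con and 28.7, 34.1 and 46.4 CPM in T2D (0.25 ± 0.17). Rps27l, a p53 target, had 33.8, 26.0 and 28.8 CPM in Con and 36.0, 45.3 and 28.1 CPM in T2D (0.22 ± 0.18), and was -0.12 with the stricter marker rule. Rpl22l1, the paralog that Rpl22 represses, was at -0.06 ± 0.10 and Rpl22 at -0.13 ± 0.07, and Rpl36al was at 0.08 ± 0.21. Without TMM, Rpl22l1 was at 0.02. Rpl13a, which in its phosphorylated form silences inflammatory messenger RNAs, had 142, 138 and 140 CPM in Con and 156, 146 and 165 CPM in T2D. Its T2D libraries lay above its Con libraries (0.08 ± 0.08, adjusted p = 0.707), as in 17.4% of all genes. Rpl24 was at 0.06 ± 0.09, and Rpl23a, at 23.5 to 50.9 CPM, at 0.38 ± 0.37.

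Scaling each member to the sum of ribosomal protein UMIs of its library asks which members changed against the rest. On that scale 3 of 81 members rose in the CD4 T gate, beside 19.1% of all genes, since a smaller sum raises every gene against it. They were Rpl13a (0.32 ± 0.10, adjusted p = 0.0236), Rpl24 (0.29 ± 0.08, adjusted p = 0.00521) and Rpl7l1 (0.49 ± 0.18, adjusted p = 0.0456). In the whole T gate 4 of 82 rose on that scale, beside 16.2% of all genes: Rpl13a (0.28), Rpl24 (0.20), Rpl7l1 (0.40) and Rps27l (0.37). In naive-type CD4 T cells 1 of 81 rose, beside 2.2% of all genes: Rpl23a (0.86 ± 0.23, adjusted p = 0.0362), at 19.6 to 61.2 CPM. On this scale p-values were adjusted over all genes tested in a gate, including those that the smaller sum raised, and not over the members alone. Whether these members would pass with an adjustment over the members alone was not tested.

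Other genes of the translation machinery were counted in the same gate. Of 21 translation factors and genes listed with them, 5 fell, beside 2.75% of all genes. They were Eef1g (-0.30), a subunit of the elongation factor 1 complex, Eif1 (-0.28) and Eif3m (-0.33), which act in initiation, Rack1 (-0.28), a scaffold on the small subunit, and Hnrnpa1 (-0.32), an RNA-binding protein of splicing. The list's median was -0.19 and 20 of 21 lay below 0, beside 50.3% of all genes. Ribosome assembly factors gave 1 call in 29, beside 2.28% of all genes that rose. Wdr12, which acts in maturation of the large subunit, rose from 79.7, 79.9 and 75.3 CPM to 116, 130 and 117 CPM (0.56 ± 0.10). Of 74 mitochondrial ribosomal protein genes tested 0 passed (5 at an unadjusted p under 0.05, 0 with DESeq2), and their median was 0.13. Of 17 genes of mTORC1 and its targets 0 passed (3 unadjusted, 0 with DESeq2). Among 3 host genes of small nucleolar RNAs tested, Snhg15 fell by 0.61 ± 0.14, and it also fell in the B gate (-0.60 ± 0.08).

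The CD4 T gate did not hold the same mix of cells in both groups. Effector-type cells (at least 2 of Ccl5, Nkg7, Gzmk, Klrg1, Cxcr3, Il2rb and S100a4) were 5.08%, 6.75% and 8.03% of it in Con and 16.2%, 14.8% and 21.4% in T2D. Naive-type cells (at least 2 genes of a list that includes Ccr7, Lef1, Igfbp4 and Dapl1, none of the former) were 70.1% to 72.6% in Con and 47.3% to 57.7% in T2D. Of these 2 sub-gates and the cells of neither kind, the effector-type cells had the lowest share of ribosomal protein UMIs, 15.4%, 12.8% and 13.3% in Con (23 to 53 cells) and 11.8%, 11.8% and 11.2% in T2D (113 to 226 cells). Within naive-type cells the share was 17.0%, 17.2% and 17.4% in Con and 16.7%, 16.1% and 15.8% in T2D, and within the cells of neither kind 16.6% to 17.2% and 14.8% to 15.9%. In each of these 3 sub-gates the T2D libraries lay below the Con libraries. In naive-type cells with 2000 to 4000 UMIs the groups overlapped, at 16.24% to 17.18% in Con and 15.66% to 16.61% in T2D. Between 1000 and 2000 UMIs they also overlapped, at 13.7% to 14.4% in 2 Con libraries and 13.8% to 15.1% in T2D. With 4000 to 8000 UMIs every T2D library lay below every Con library. Small-subunit genes alone overlapped in naive-type cells, at 8.73% to 9.22% in Con and 8.25% to 8.81% in T2D. Large-subunit genes did not. The groups overlapped in regulatory-type CD4 T cells (at least 2 of Foxp3, Ikzf2, Ctla4 and Il2ra), which can also belong to one of the 3 sub-gates. Their share was 12.3%, 9.93% and 9.07% in Con and 10.3%, 9.62% and 10.9% in T2D, below that of the effector-type cells in each library, from 10 to 73 cells a library. With the mix of the Con libraries applied to every library, the CD4 T means were 16.9% ± 0.16 and 15.7% ± 0.48, a difference of -1.19 percentage points against -1.79 as measured.

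**Figure D3:**
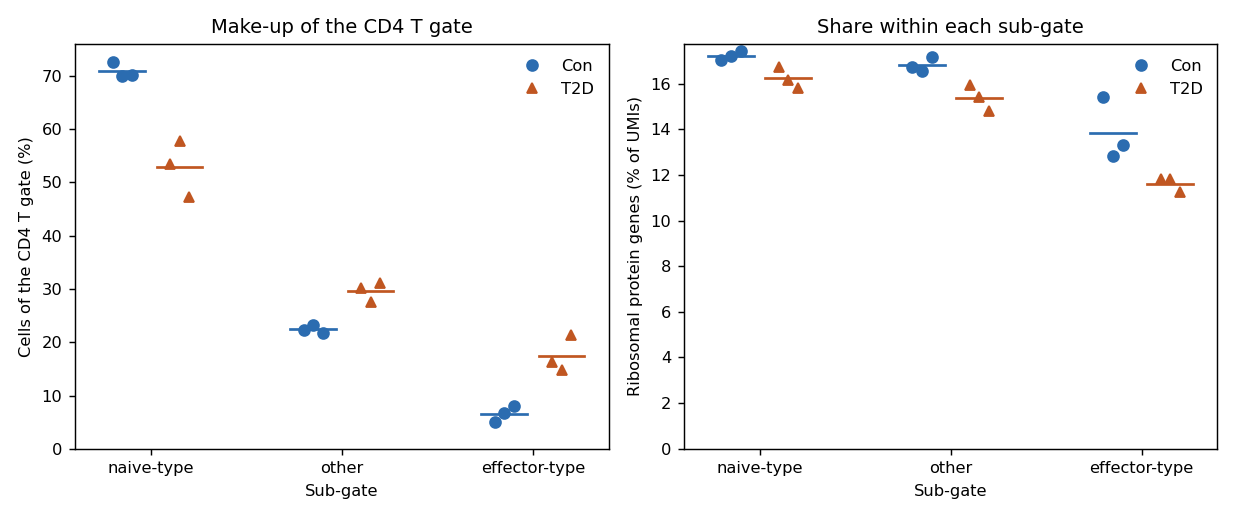
Left, percent of CD4 T gate cells in each sub-gate (y axis). Right, share of UMIs from ribosomal protein genes within each sub-gate (y axis, percent). Points are libraries (3 Con, 3 T2D) and lines are group means. Effector-type cells make up 14.8% to 21.4% of the gate in T2D and 5.08% to 8.03% in Con, and the T2D points lie below the Con points in all 3 sub-gates on the right.

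In the naive-type CD4 T cells 3 of 81 members fell, beside 1.14% of all 8407 genes tested: Rpl39 (-0.28 ± 0.07, adjusted p = 0.0156), Rpl17 (-0.26 ± 0.07, adjusted p = 0.0467, with overlapping groups) and Rpl38 (-0.25 ± 0.07, adjusted p = 0.0489). Rpl39 had 3449, 3569 and 3780 CPM in Con and 3031, 3152 and 3094 CPM in T2D, without overlap. The median of the members was -0.14, and 19 of 81 (23.5%) did not overlap with T2D lower, beside 5.63% of all genes. With library totals 0 members passed (16 at an unadjusted p under 0.05), and DESeq2 called 2. No member passed without Con 2, Con 3 or T2D 1, 1 did without T2D 2, and 4 did without Con 1, of which 1 was higher. Over these 6 fits Rpl39 passed in 3, Rpl17 in 2 and Rpl38 in 0. In this sub-gate the cycling list (52.6 to 56.7 CPM in Con, 52.0 to 89.3 in T2D) and the NK list (46.2 to 49.6 and 40.8 to 56.6 CPM) overlapped. The red cell list did not, at 108 to 174 CPM in Con and 634 to 1871 CPM in T2D, and its part was not tested. The naive-type rule leaves out cells with a UMI of Nkg7, which is in the NK list. The NK values of this sub-gate are therefore partly set by the rule.

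In CD8 T cells the share of ribosomal protein UMIs was 20.1%, 19.8% and 19.7% in Con and 19.0%, 18.8% and 18.5% in T2D, with means of 19.9% ± 0.22 and 18.8% ± 0.29 and no overlap. With the stricter marker rule the groups overlapped, at 18.52% to 20.07% in Con and 18.03% to 18.64% in T2D. Of 81 members tested, 2 fell, beside 0.978% of all 9811 genes. They were Rpl39, with 4313, 4450 and 4400 CPM in Con and 3604, 3861 and 3840 CPM in T2D (-0.26 ± 0.06, adjusted p = 0.0106), and Rpl13, with 1613, 1731 and 1619 CPM in Con and 1400, 1417 and 1540 CPM in T2D (-0.23 ± 0.06, adjusted p = 0.0335). Rpl38 missed the threshold (-0.21, adjusted p = 0.0543). The median of the members was -0.12, and 24 of 81 (29.6%) did not overlap with T2D lower, beside 6.43% of all genes. A gate that kept cells where T markers led those of every other lineage by at least 2 gave 23 lower members and a share difference of -1.80 points against -1.10. It took in cells with 2 or more markers of another lineage, and dropped cells with 2 T markers and 1 of another. Without TMM 1 member passed, and 0 passed without Con 2, without Con 3 or without T2D 1.

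Within the CD8 T gate the T2D libraries were lower both in the naive-type cells (19.46% to 19.96% in Con, 17.81% to 18.84% in T2D; 58 to 100 cells a library) and in the cells with at least 2 effector-type genes (19.6% to 20.1% and 18.4% to 19.0%). The effector-type rule took in 57.6% to 71.9% of the CD8 T gate, so that it describes most of these cells. In it 2 of 81 members fell, Rpl39 (-0.28 ± 0.06) and Rpl13 (-0.24 ± 0.06), beside 0.829% of all genes. In the naive-type CD8 T cells 0 of 76 passed, beside 0.131% of all genes that fell, with 22 members at an unadjusted p under 0.05 and 0 called by DESeq2. Mitochondrially encoded genes gave 5.80% to 6.21% of UMIs in the CD8 T gate of Con and 4.72% to 5.63% in T2D. The red cell list was at 103 to 705 CPM in Con and 345 to 2053 CPM in T2D, which overlapped, and the NK list at 681 to 722 CPM in Con and 796 to 881 CPM in T2D. Their part was not tested. Over the whole T gate, which holds the CD4 and CD8 gates, 10 of 82 members fell, beside 2.28% of all 10861 genes. They were Rpl39, Rpl13, Rpl38, Rpl36, Rpl36a, Rpl17, Rps3a1, Rpl7a, Rplp2 and Rps15, by 0.21 to 0.30 on the log2 scale. With library totals 4 fell and the genes called went from 228 higher and 248 lower to 409 higher and 146 lower. None passed without Con 2, 2 without Con 3 and 4 without T2D 2.

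NK cells had a share of 6.64%, 6.84% and 6.28% in Con and 5.96%, 5.42% and 5.55% in T2D. The T2D mean was 85.6% of the Con mean (5.64% ± 0.28 and 6.59% ± 0.29), with no overlap, and 68 to 161 cells a library. In NK cells with 2000 to 4000 UMIs the groups overlapped slightly. The share there was 5.824% to 6.364% in Con (43 to 53 cells a library) and 5.227% to 5.827% in T2D (68 to 113 cells). The more inclusive gate gave 6.30% to 7.06% and 5.75% to 6.40%, which overlapped. With edgeR 0 of 78 members passed, beside 0.13% of all 4627 genes that fell, while 30 had an unadjusted p under 0.05 and DESeq2 also called 0. The median log2 fold change was -0.24, 72 of 78 lay below 0, beside 50.2% of all genes, and 32 (41%) did not overlap with T2D lower, beside 6.38% of all genes. Rpl5 had 955, 974 and 905 CPM in Con and 747, 687 and 685 CPM in T2D (-0.42 ± 0.12, adjusted p = 0.259). The red cell genes were at 149 to 188 CPM in the Con NK gate and at 266 to 5453 CPM in T2D, and their part was not tested. Of a list of mTORC1 pathway genes, 1 of 9 tested in NK cells passed with edgeR, beside 0.13% of all genes that rose, and DESeq2 called 0. It was Ddit4, a stress gene whose product inhibits mTORC1, at 57.8 to 80.1 CPM in Con and 128 to 171 CPM in T2D (1.09 ± 0.25, adjusted p = 0.0463). In B cells 1 of 17 fell, beside 0.721% of all genes, also Ddit4 (-0.55 ± 0.11, adjusted p = 0.0401).

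In B cells the share was 11.3%, 11.0% and 10.7% in Con and 10.9%, 10.6% and 9.98% in T2D, so the groups overlapped (11.0% ± 0.29 and 10.5% ± 0.46). The T2D mean was 95.1% of the Con mean, beside 94.5% in CD8 T, 94.2% in naive-type CD4 T and 89.4% in all CD4 T cells. Of 82 members 0 passed, beside 0.721% of all 11376 genes that fell and 0.703% that rose, with 18 members at an unadjusted p under 0.05 and 1 called by DESeq2. The median was -0.08, 70 of 82 lay below 0, beside 50.2% of all genes, and 20 (24.4%) did not overlap with T2D lower, beside 8.18% of all genes. Rpl39 had 2376, 2340 and 2308 CPM in Con and 2091, 2133 and 2057 CPM in T2D (-0.18 ± 0.06, adjusted p = 0.139). These values did not overlap either, though the test was not passed. B cells with a Cd83 UMI and B cells with Cr2 and without Cd83 had overlapping shares as well, from 9.93% to 11.4% and from 10.2% to 11.5%. With the stricter marker rule the latter did not overlap, at 11.2% to 12.1% in Con and 10.3% to 11.1% in T2D. In each of these sub-gates 0 of 81 members passed, beside 0.66% and 0.338% of all genes that fell, with 16 and 15 members at an unadjusted p under 0.05 and 0 called by DESeq2.

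In myeloid cells and platelets the groups overlapped. Classical monocytes had 7.51%, 7.30% and 7.13% in Con and 7.05%, 7.69% and 6.78% in T2D, and non-classical monocytes 6.61%, 6.24% and 6.46% and 6.56%, 6.79% and 6.42%. Of 78 and 80 members tested in them 0 passed (0 and 1 at an unadjusted p under 0.05, and 0 with DESeq2), beside 0.336% and 0.737% of all genes called in either direction. The medians of the members were 0.01 and 0.02. Neutrophils ranged from 2.14% to 3.50% in Con and 2.53% to 2.98% in T2D, with 0 of 73 members called (4 unadjusted, 0 with DESeq2) beside 1.24% of all genes. Platelets ranged from 1.21% to 1.56% and 1.02% to 1.56%, with 0 of 43 members called (2 unadjusted, 0 with DESeq2) beside 0% of all genes. These gates held 48 to 173 cells a library, and a platelet had 10.7 to 16.7 ribosomal protein UMIs on average.

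**Figure D4:**
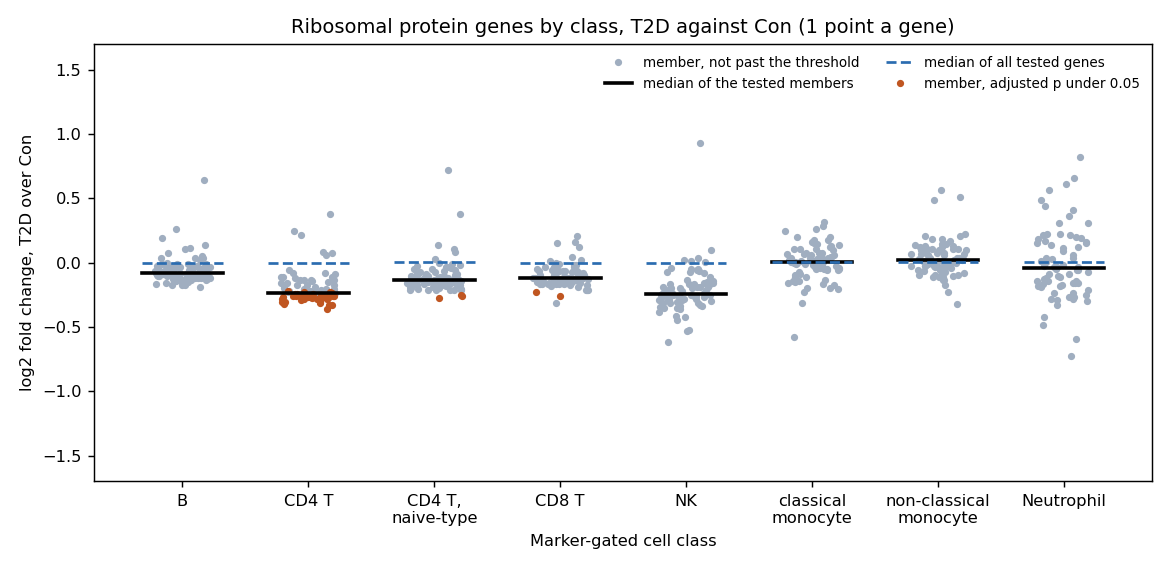
Log2 fold change of T2D over Con (y axis) for each tested ribosomal protein gene, 1 point a gene, in 8 gates (x axis), with the median of the members (black) and of all tested genes (dashed blue). Orange marks members past adjusted p 0.05. The median is -0.24 in CD4 T and NK cells, -0.14 in naive-type CD4 T, -0.12 in CD8 T, -0.08 in B cells, and between -0.04 and 0.02 in the monocyte and neutrophil gates.

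Whether the T2D effect itself differed between lymphocyte gates of the same libraries was tested with an interaction term. Between CD4 T and B cells it was more negative in CD4 T for 16 of 81 members, beside 1.04% of all 11455 genes. Rps24 showed a difference of -0.18 ± 0.04 (adjusted p = 0.00666): its log2 fold change was -0.26 in CD4 T cells and -0.08 in B cells. Between CD4 T and CD8 T cells it was more negative in CD4 T for 15 of 81, beside 0.425% of all 9873 genes, again with Rps24 (-0.15 ± 0.03), and with Rps28 (-0.17 ± 0.03). Between CD8 T and B cells 0 of 82 members passed, beside 0.65% of all genes in either direction, and 0 had an unadjusted p under 0.05. DESeq2 was not run for these differences. With library totals in place of TMM 1 and 4 members passed for the 2 comparisons of CD4 T cells. Without Con 1, Con 2, Con 3, T2D 1, T2D 2 and T2D 3 in turn, 3, 3, 4, 7, 2 and 4 passed against B cells and 5, 4, 3, 14, 8 and 2 against CD8 T cells. When only naive-type CD4 T cells were set against B cells, a comparison added after these values were seen, 0 of 81 members passed, beside 0.523% of all genes.

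Between cell types of the same 6 libraries the single members did not all differ by the same amount. The median difference of the members was larger in size than the T2D medians of CD4 T and NK cells in the comparisons below. The exception was non-classical against classical monocytes, at -0.21. From B to T cells 80 of 81 tested members were higher, beside 36.1% of all genes, with a median log2 difference of 0.72. Rplp0 rose most, from 692 ± 22 CPM in B to 1766 ± 73 CPM in T cells (1.39 ± 0.03, higher in 6 of 6 libraries), followed by Rplp1 (1.35), Rpl12 (1.10), Rpl5 (1.07) and Rpl3 (1.01). Rplp0, Rplp1 and Rpl12 sit together at the stalk base of the large subunit. Of the paralogs, Rpl22l1 was higher in T cells by 0.94, Rpl36al by 0.45 and Rps27l by 0.25. Rpl7l1 was the 1 member that was lower, by 0.28 ± 0.06 on the log2 scale (lower in 6 of 6 libraries, beside 36.7% of all genes).

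From T to NK cells 78 of 81 members were lower, beside 23.6% of all genes, with a median of -1.62. Rpl12 fell from 2538 ± 242 to 464 ± 64 CPM (-2.62 ± 0.06), Rps19 from 1911 ± 133 to 358 ± 62 CPM (-2.58 ± 0.07) and Rps20 from 4702 ± 284 to 976 ± 48 CPM (-2.42 ± 0.05). Rplp0 (-2.18) and Rpl36a (-2.13) followed. The 3 that did not pass were paralogs: Rpl36al (-0.48 ± 0.29), Rpl7l1 (0.02 ± 0.22) and Rps27l (0.16 ± 0.21). These had 15.5 to 40.0 CPM on average in NK cells, so their intervals were wide. With library totals the median of all genes went from -0.04 to 0.11 in this comparison, and 78 members were lower there too.

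**Figure D5:**
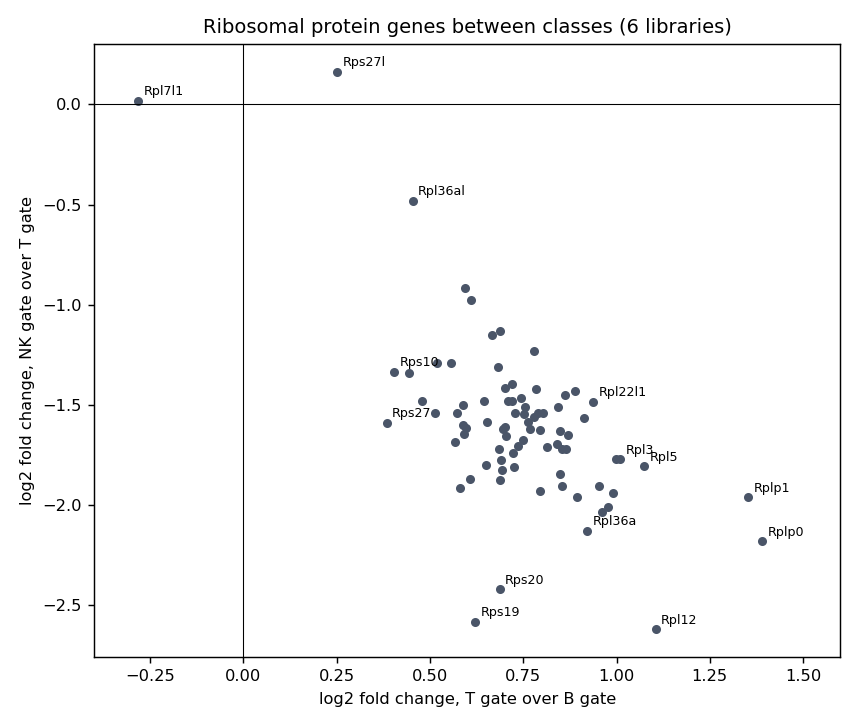
Log2 fold change of T over B cells (x axis) against that of NK over T cells (y axis) for 81 ribosomal protein genes, from edgeR fits within the 6 libraries; both axes share the T gate libraries, so the position along a falling diagonal is partly shared by construction. Rplp0 and Rplp1 stand at the right, Rpl12, Rps19 and Rps20 at the bottom, and Rps27l and Rpl7l1 apart from the other members at the top left.

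Classical monocytes differed from B cells in both directions. Against B cells 62 of 81 members were lower, beside 34.2% of all genes, and 7 were higher, beside 26.5%. Rpl12 (-1.47), Rps27 (-1.36), Rps20 (-0.99), Rps24 (-0.92) and Rpl36a (-0.90) were lowest. Rps27l rose from 28.1 ± 3.3 to 109 ± 23 CPM (2.03 ± 0.17, higher in 6 of 6 libraries), Rpl36al by 1.05, Rpl10 by 0.55, Rplp0 by 0.39 and Rpl7a by 0.19, the last not past the threshold with library totals. Rpl7l1 was at 0.02 ± 0.21, and at -0.08 with library totals, and Rpl22l1 at -0.23 ± 0.15. With library totals the median of all genes went from -0.23 to -0.32 here, and 68 members were lower and 4 higher.

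Non-classical monocytes had 37 of 78 members lower than classical monocytes, beside 19.9% of all genes, and 4 higher, beside 19.9%. Rps27l was lower by 1.02 ± 0.19 on the log2 scale, Rpl41 by 0.63, Rplp0 by 0.63, Rpl10a by 0.58 and Rpl7a by 0.58, and Rpl22l1 by 0.52. Among the 4 higher members were the small-subunit genes Rps27 (0.44 ± 0.06), Rps23 (0.24) and Rps19 (0.21). In neutrophils 75 of 77 members were lower than in classical monocytes, beside 33.8% of all genes, with a median of -1.32, and with library totals 77 were. Rpl3 fell from 560 ± 32 to 67.6 ± 23 CPM (-2.73 ± 0.17) and Rpl10a from 138 ± 23 to 18.5 ± 6.8 CPM (-2.53 ± 0.28), followed by Rps18 (-2.39), Rpsa (-2.30) and Rpl35 (-2.10). Rps27 (-0.11) and Rps9 (-0.12) were the 2 that did not pass, and they were named after their values were seen. The paralogs Rpl22l1 (-2.04) and Rps27l (-1.92) were lower as well, at 15.8 and 23.6 CPM in neutrophils. With library totals the median of all genes went from -0.04 to -0.35 in this comparison.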

How the data were processed

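Peripheral blood mononuclear cells of 3 Con and 3 T2D libraries were captured with BD Rhapsody whole-transcriptome beads. The authors deposited un-normalized UMI counts, as a matrix of genes by cell labels for each library. Per the submitters' processing notes, CASAVA 1.8, UMI-tools, Seurat and the build mm10 were used; the sources used here name no aligner or annotation and do not say how reads shared with pseudogenes were handled. Such reads make Rpl23a, Rps10, Rpl21 and the pair Rpl36a and Rpl36al uncertain.

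A cell was kept when it had 200 or more detected genes and a mitochondrial share of 20% or less, which left 49025 of 49407 barcodes. No doublet caller was run; cells that passed 2 lineage gates were left out of all classes. All class names rest on markers and were rebuilt here. Counts were summed per library and class, and 14 gates with at least 30 cells in every library were tested with edgeR 4.0.16 (R 4.3.3; robust quasi-likelihood fit, TMM, filterByExpr, Benjamini-Hochberg adjustment over all genes, threshold 0.05). The difference of the T2D effect between gates, and differences between cell classes, were fitted with the library as a block. CPM are UMIs of a gene per 1000000 UMIs of the class, before TMM. Shares of UMIs are given per library with no test. Errors are SD over libraries or SE of the fit.

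Named in each comparison were up to 25 members past the threshold, and a fixed list of subunit, stalk and paralog genes; between classes, the 5 most positive and most negative members and the paralogs. The members and lists were chosen with earlier results of these data known. Alternatives were no TMM, DESeq2 1.42.0, no filter, a replicate block, TMM without ribosomal protein genes, a stricter gate (3 markers, none of another lineage) and each library left out. After the data were seen, a more inclusive gate, a fixed mix of sub-gates, the comparison of naive-type CD4 T with B cells and the leave-one-out fits of the differences were added. Scripts were tested on simulated data, in which the share of false calls was above the threshold in the B and CD4 T gates and below it in the NK gate. Start-site sequences are from RefSeq. Some members and markers that were measured are not reported here by name.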

Additional observations from a re-analysis of the deposited data

Results flagged for a closer look

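The T2D effect on the genes named here differed between lymphocyte gates of the same libraries by a test of the difference itself (edgeR quasi-likelihood test, adjusted p under 0.05). All of these differences were more negative in CD4 T cells. In values of log2 fold change in CD4 T minus that in B cells, Rps19 differed by -0.22, Rpl31 by -0.21, and Rpl5 and Rps27a by -0.2 each. Rpl12 and Rpl39 differed by -0.19, Rps24, Rps16 and Rps29 by -0.18, Rps28 by -0.17, and Rpl17, Rps4x, Rps20 and Rpl9 by -0.16. Rps27a codes for ubiquitin fused to a small-subunit protein.

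Against CD8 T cells, Rps28 differed by -0.17, Rpl5, Rpl12 and Rpl30 by -0.16, and Rps24 and Rps16 by -0.15. Rps20, Rpl9 and Rps3a1 differed by -0.14, Rps27, Rpl17 and Rps29 by -0.13, and Rps4x by -0.12. Both comparisons share the CD4 T gate, so they are not independent. Rps24 passed against CD8 T cells in all 6 fits that left out 1 library (highest adjusted p 0.0498). The sub-gate mix of the CD4 T gate also differed between groups, and naive-type CD4 T cells against B cells gave 0 such members (4 at an unadjusted p under 0.05; DESeq2 was not run).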

How the results depend on the processing

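Of the share differences, T went to -1.88, CD8 T to -1.80 and CD8 effector-type to -2.03 percentage points with the more inclusive gate, CD8 T to -0.78 with the stricter gate and CD4 T to -1.19 with a fixed mix of sub-gates. With 1 library left out they ranged from -1.66 to -1.13 (T), -2.06 to -1.47 (CD4 T), -1.25 to -0.78 (CD4 naive-type), -1.24 to -0.95 (CD8 T), -1.57 to -1.06 (CD8 naive-type), -1.29 to -0.97 (CD8 effector-type) and -1.11 to -0.82 (NK).

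Ribosomal protein genes that passed, as reported and otherwise: T 10, against 4 with no TMM, 28 with DESeq2, 29 with no filter, 6 with the stricter gate and 42 with the more inclusive one. CD4 T 39, against 11 with no TMM and 1 with the stricter gate. CD4 naive-type 3, against 0 with no TMM and 0 with the stricter gate. CD8 T 2, against 1 with no TMM, 0 stricter and 23 inclusive. CD8 effector-type 2, against 1 with no TMM and 28 inclusive. B 0, against 1 with DESeq2 and 4 with no filter, and B Cd83+ 0, against 1 with no filter. The differences of effect went to 1 (CD4 T minus B) and 4 (CD4 T minus CD8 T) with no TMM. With 1 library left out: T 0 to 14, CD4 T 10 to 42, CD4 naive-type, CD8 T and CD8 effector-type 0 to 4, CD4 T minus B 2 to 7 and CD4 T minus CD8 T 2 to 14. The stricter gate holds fewer cells. The cause of the changes, with this gate and with the other settings, was not tested.

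All genes changed, with no filter: B 493 (162 as reported), B Cd83+ 204 (123), B Cr2+ Cd83- 128 (51), T 775 (476), NK 21 (12), classical monocytes 35 (16), non-classical 70 (45), neutrophils 68 (40) and platelets 8 (0). With DESeq2: B Cd83+ 75, CD4 T 296 (472), CD4 naive-type 86 (137), CD8 T 104 (170), CD8 naive-type 2 (5), CD8 effector-type 78 (131) and non-classical monocytes 25. With the stricter gate: B 28, B Cd83+ 8, B Cr2+ Cd83- 3, T 109, CD4 T 78, CD4 naive-type 38 and CD8 T 3; other gates had under 30 strict cells in a library and were not run. With the more inclusive gate: T 923, CD8 T 447, CD8 naive-type 8, CD8 effector-type 366, classical monocytes 62 and neutrophils 133. With 1 library left out: B 31 to 260, B Cd83+ 38 to 167, B Cr2+ Cd83- 22 to 71, T 170 to 453, CD4 T 251 to 505, CD4 naive-type 68 to 137, CD8 T 76 to 156, CD8 naive-type 0 to 7, CD8 effector-type 85 to 142, NK 2 to 24, classical monocytes 8 to 34, non-classical 23 to 90, neutrophils 19 to 77, platelets 0 to 6, CD4 T minus B 82 to 238, CD8 T minus B 33 to 94, CD4 T minus CD8 T 39 to 85 and CD4 naive-type minus B 36 to 72.

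The samples share only a number: deviations of same-numbered libraries correlated by -0.0601 to 0.112 across gates, other pairs by -0.152 to 0.177. With the replicate block all genes changed were B 472, B Cd83+ 227, B Cr2+ Cd83- 149, T 854, CD4 naive-type 239, CD8 naive-type 10, NK 3, classical monocytes 42, non-classical 81, neutrophils 65 and platelets 12, and members passed were B 1, B Cd83+ 1, T 29, CD4 T 52 and CD8 effector-type 1.

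Signs turned for members that did not pass. With no TMM: Rps19 in B 0.0075, Rpl22l1 in CD4 T 0.0163 and Rpl7l1 in classical monocytes against B -0.0803. With the stricter gate: Rps27l -0.12 and Rpl36al -0.21 in CD4 T, and Rpl22l1 -0.042, Rplp0 0.0069 and Rps19 0.0201 in CD8 T. With the more inclusive gate in CD8 T: Rpl22l1 -0.0099 and Rpl36al 0.0145. With 1 library left out: in B, Rpl22l1 -0.0783 to 0.21, Rpl22 -0.11 to 0.0822, Rps19 -0.0832 to 0.0801 and Rps27l -0.0299 to 0.22; in CD4 T, Rpl22l1 -0.13 to 0.0784 and Rpl36al -0.0794 to 0.23; in CD8 T, Rpl22l1 -0.0265 to 0.19 and Rpl36al -0.22 to 0.0494. The monocyte, neutrophil and platelet gates held 48 to 173 cells a library, and the effect of cell number on the results was not tested.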
